A study of Mus musculus with 4 samples.

Results

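The ATP-binding cassette (ABC) transporter genes were examined in enhanced reduced representation bisulfite sequencing (ERRBS) of mouse liver, with emphasis on the transporters that move bile salts, phospholipid and cholesterol. Members were the autosomal RefSeq genes with an ABC symbol of subfamilies A to G that held, in the gene or within 2 kb of it, a cytosine read in all 4 livers, which gave 47 of 26432 genes with such a cytosine. Of these 47 genes, 9 formed the bile and lipid list (Abcb11, Abcb4, Abcc2, Abcg5, Abcg8, Abcc3, Abcc4, Abca1 and Abcg1) and 38 were other ABC genes. The members held 2636 cytosines, 0.210% of those shared on the autosomes, of which 1382 lay in promoters (1000 bp on each side of a curated transcription start), 1191 in gene bodies outside the promoters and 80 in flanks, a few belonging to 2 genes. The livers came from male mice aged 6 to 8 weeks on a normal diet. Mixed-1 and Mixed-2 were of an undefined background that includes C57BL/6J and other strains, whereas B6-1 and B6-2 were C57BL/6. Levels of the mice are given in this order. The groups were kept at different institutions, which leaves strain and housing inseparable, and no allele or agent was introduced in either group.

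ERRBS cuts DNA with MspI at CCGG, reads the fragments after bisulfite treatment and gives, for each CpG cytosine, the percent of reads that kept a C, here called the methylation level. Bisulfite keeps 5-hydroxymethylcytosine as C too, so the level holds both modifications. The liver is a mixture of cells and each gene has a maternal and a paternal copy, so an intermediate level from a mixture of cells cannot be told apart from partial methylation within each cell. The median coverage of member cytosines was 40 and 45 reads in the Mixed mice and 66 and 59 in the B6 mice. Over the whole table the mean level of the shared cytosines lay between 28.4% and 28.7% in the 4 mice. Marker genes could not check the tissue label here, since of 8 hepatocyte markers just Hnf4a had promoter cytosines, at 28.7%. The cholangiocyte markers Epcam, Krt19 and Sox9 stood at 0.68% to 3.81%. The part of other cell types in the values below was not tested.

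ABC transporters bind and split ATP to carry substrates across a membrane. In the hepatocyte, exporters in the canalicular membrane (Abcb11 for bile salts, Abcb4 for phosphatidylcholine, Abcc2 for conjugates such as bilirubin glucuronide, and Abcg5 with Abcg8 for sterols) form bile, exporters on the basolateral side (Abcc3 and Abcc4) return bile salts to blood, and Abca1 and Abcg1 load cholesterol onto lipoproteins. In mammals, CpG-rich promoters are commonly unmethylated and the bodies of transcribed genes commonly methylated.

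Whether a promoter could be measured differed among the bile genes, whose start sequences are printed for that reason. The window from 250 bases before to 50 after the start, taken from RefSeq on GRCm38.p6, is given for the 3 canalicular exporters with no promoter cytosine (Abcb11 at chr2:69342567-69342866 on the minus strand, Abcc2 at chr19:43782058-43782357 on the plus strand, Abcg5 at chr17:84682962-84683261 on the minus strand), then for 2 members of the list with an unmethylated promoter (Abcb4 at chr5:8893471-8893770, plus, and Abca1 at chr4:53159846-53160145, minus) and for Abca13, a methylated one (chr11:9191692-9191991, plus). Capitals mark each CpG.
Abcb11: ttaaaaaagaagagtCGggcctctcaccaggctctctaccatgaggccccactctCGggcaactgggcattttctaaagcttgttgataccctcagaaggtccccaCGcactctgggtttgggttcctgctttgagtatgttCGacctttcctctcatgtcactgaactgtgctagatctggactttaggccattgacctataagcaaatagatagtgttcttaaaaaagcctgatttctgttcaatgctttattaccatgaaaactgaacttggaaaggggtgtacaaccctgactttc
Abcc2: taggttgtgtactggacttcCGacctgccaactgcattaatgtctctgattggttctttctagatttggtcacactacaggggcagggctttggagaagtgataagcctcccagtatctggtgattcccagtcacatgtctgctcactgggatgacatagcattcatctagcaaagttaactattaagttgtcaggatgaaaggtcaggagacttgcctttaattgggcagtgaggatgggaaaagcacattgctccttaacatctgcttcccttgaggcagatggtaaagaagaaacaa
Abcg5: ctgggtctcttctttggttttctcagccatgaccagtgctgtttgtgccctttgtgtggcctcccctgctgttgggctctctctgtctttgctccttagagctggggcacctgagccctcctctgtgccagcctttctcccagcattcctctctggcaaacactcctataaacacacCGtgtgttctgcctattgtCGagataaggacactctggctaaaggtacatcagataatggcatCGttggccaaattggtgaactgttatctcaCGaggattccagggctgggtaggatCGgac
Abcb4: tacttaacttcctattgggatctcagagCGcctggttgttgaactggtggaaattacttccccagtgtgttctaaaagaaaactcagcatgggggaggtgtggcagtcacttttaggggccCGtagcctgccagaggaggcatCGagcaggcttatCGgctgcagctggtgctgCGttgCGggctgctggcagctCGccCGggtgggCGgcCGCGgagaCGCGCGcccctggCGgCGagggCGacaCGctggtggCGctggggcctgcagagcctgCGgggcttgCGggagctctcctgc
Abca1: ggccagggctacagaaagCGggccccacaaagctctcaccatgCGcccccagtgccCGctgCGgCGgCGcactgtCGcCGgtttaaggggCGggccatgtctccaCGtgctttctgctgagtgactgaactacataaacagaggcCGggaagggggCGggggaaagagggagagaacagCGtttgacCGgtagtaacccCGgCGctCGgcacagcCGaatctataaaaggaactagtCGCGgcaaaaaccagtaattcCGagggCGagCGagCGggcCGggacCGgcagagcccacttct
Abca13: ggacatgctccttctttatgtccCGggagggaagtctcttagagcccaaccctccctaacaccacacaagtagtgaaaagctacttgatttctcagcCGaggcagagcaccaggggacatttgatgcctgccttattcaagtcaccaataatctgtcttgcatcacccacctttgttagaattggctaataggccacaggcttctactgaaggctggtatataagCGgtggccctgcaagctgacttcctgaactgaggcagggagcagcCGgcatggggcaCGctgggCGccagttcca

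These windows held 4 CpGs in Abcb11, 1 in Abcc2 and 5 in Abcg5, and no CCGG in any of the 3. Over the full 1000 bp on each side of the start, these 3 promoters held 1, 1 and 2 CCGG. The Abcb4 window held 21 CpGs and 1 CCGG, and that of Abca1 held 26 CpGs and 6 CCGG. In Abcb4, 14 cytosines of the window averaged 0.0357%, and in Abca1 29 averaged 0.139%. The Abca13 window had 6 CpGs and 2 CCGG, and its 4 measured cytosines averaged 87.1%. The letters CCGG, which read the same on both strands, occurred in 53.5% of 31396 RefSeq promoter windows. They occurred in 70.5% of the 44 windows of members in that set, which covers 37 of the 47 members.

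Over the full promoter window, 36 members had at least 3 shared cytosines and 11 had none (Abcb11, Abcc2, Abcg5, Abcb1a, Abcb5, Abcb6, Abca6, Abca8a, Abca8b, Abca12 and Abca15). Of these 11, Abcb6 and Abca12 had promoter cytosines in the B6 mice alone, and the 13 of Abcb6 were at 0% in both. The coverages of these 13 summed to 446 and 322, with a read counted at each cytosine it covers. Independent calls would allow up to 0.673% and 0.932%, so the true limits are higher. Members without a promoter cytosine were 23.4% of the family, and 31.1% of 20558 autosomal protein-coding genes had none. The observed to expected CpG ratio, which compares the CpGs of a window with the number its C and G content predicts, had a median of 0.279 in the 11 uncovered promoters (0.197 to 0.398) and 0.503 in the 36 covered ones (0.212 to 0.92). The 3 uncovered bile exporters had 3 of the 5 lowest ratios of the members, 0.214 for Abcb11, 0.197 for Abcc2 and 0.201 for Abcg5. Thus 3 of 5 canalicular exporters had no promoter value, and the 6 list members compared below were Abcb4, Abcg8, Abcc3, Abcc4, Abca1 and Abcg1.

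Of the 36 covered promoters, 29 averaged below 20% over the mice, and 83.4% of all 17844 genes with at least 3 promoter cytosines did so. Another 5 lay between 20% and 80%, where the share over all genes was 9.6%, and 2 lay above 80%, against 7.01%. With cytosines that also lie in the promoter of another gene left out, 24 of 31 promoters averaged below 20%. The median promoter level was 0.678% in members, 0.949% in 245 solute carrier (Slc) genes and 0.519% in all genes. Each share was near that of all genes. In 13609 protein-coding genes the shares were 90.8%, 5.83% and 3.39%, with a median of 0.318%, and in members 80.6%, 13.9% and 5.56%. Nearness thus depended on the reference, and the difference from protein-coding genes was not tested. None of the shares is reported as particular to the family.

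**Figure D1:**
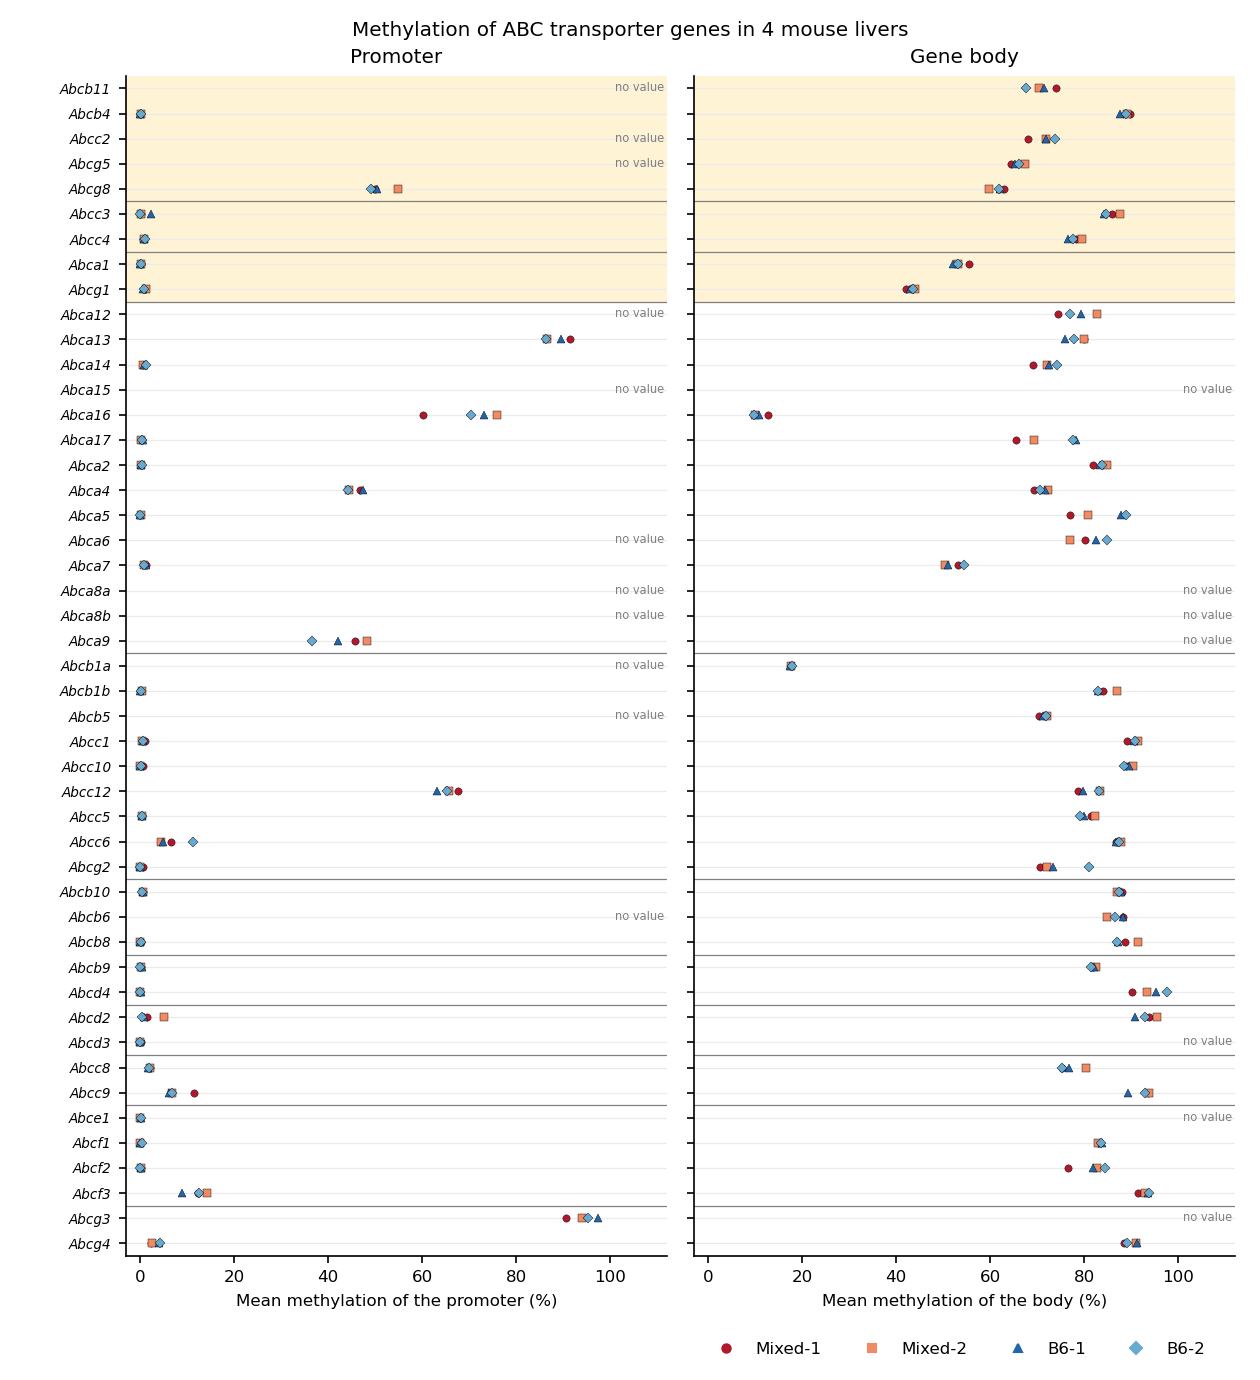
Mean methylation (%) of the promoter (left) and gene body (right) of each ABC gene, with 1 point per mouse and the genes in rows grouped by role between grey lines; the shaded rows are the bile and lipid transporters and "no value" marks regions with under 3 shared cytosines. In the promoter panel 29 of 36 genes lie below 20%, whereas 22 of 40 bodies lie above 80%.

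Among canalicular exporters, the Abcb4 promoter was unmethylated. Its 42 cytosines averaged 0% and 0.204% in the Mixed mice and 0% and 0.237% in the B6 mice. The 2 values of 0 rested on summed coverages of 2035 and 3484, in which a read counts once at each cytosine it covers. Were these calls independent, counting error alone would allow levels of up to 0.147% and 0.0861%. Calls from the same read are not, so the true limits are higher. The other covered canalicular promoter, Abcg8, was read at 49.9% and 54.9% in the Mixed mice and 50.5% and 49.2% in the B6 mice (51.1% ± 2.57, SD, n = 4), from 6 cytosines. Those 6 cytosines lie at the upstream of its 2 curated starts, inside Abcg5, whose gene runs the opposite way, and none lies within 1000 bp of the other start. The 4 cytosines at 1137 to 1257 bp past that other start, counted to the body, were at 1.60% and 1.88% in the Mixed mice and 4.95% and 7.08% in the B6 mice. Both stretches are printed because the promoter value of Abcg8 turns on which start is taken (mm10, plus strand, CpGs in capitals).
Abcg8 upstream start, chr17:84676173-84676309: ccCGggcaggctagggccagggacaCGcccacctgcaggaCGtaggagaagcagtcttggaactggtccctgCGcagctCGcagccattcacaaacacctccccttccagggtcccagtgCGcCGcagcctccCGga
Abcg8 downstream, chr17:84684256-84684380: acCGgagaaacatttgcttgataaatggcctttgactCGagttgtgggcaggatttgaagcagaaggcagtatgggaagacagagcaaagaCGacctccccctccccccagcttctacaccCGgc

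The upstream stretch holds 8 CpGs and the downstream one 4. In every mouse the upstream cytosines were the more methylated. The same 6 cytosines are counted to the body of Abcg5, and the 4 downstream ones lie in the flank of Abcg5, at -1367 to -1247 bp from its start.

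The basolateral exporters and the cholesterol transporters had unmethylated promoters. Abcc3, which exports conjugated bile salts, had levels of 0.255% and 0.173% in the Mixed mice and 2.30% and 0% in the B6 mice over 12 cytosines. B6-1 stood above the other 3 mice there. Abcc4, which exports bile salts together with glutathione, ranged from 0.672% to 1.06% over 83 cytosines. The levels of Abca1 were 0.135% and 0.0887% in the Mixed mice and 0.0778% and 0.158% in the B6 mice over 55 cytosines, and those of Abcg1 were 0.986% and 1.23% in the Mixed mice and 0.516% and 0.732% in the B6 mice over 37. The Mixed and B6 mice did not overlap in Abcc4 and Abcg1, as in 35% of all promoters, and overlapped in Abcc3 and Abca1.

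The mean over the 6 promoters of the list was 8.66% and 9.56% in the Mixed mice and 9.03% and 8.56% in the B6 mice, and over the 30 other ABC promoters 14.8% and 15.1% in the Mixed mice and 14.8% and 14.7% in the B6 mice. The difference averaged -5.92 points ± 0.283 (SD, n = 4), lower in the list in 4 of 4 mice (two-sided exact sign-flip permutation test over mice, p = 0.125, the smallest p that 4 mice allow, 0.175 after Benjamini-Hochberg adjustment over 7 comparisons). This sign rested on few genes. Without Abcg8 the difference was -14.3 points, with promoters cut to 1000 bp upstream it was 2.93, with the canalicular exporters alone 12.4, and with a broad lipid list 4.67. The difference of the medians over genes was -0.0357 points on average (p = 0.5, same exact test). The difference of the means thus lay in the few methylated promoters.

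Outside the list, 6 promoters averaged 20% or more, 4 of them of the A subfamily. Abcg3, a mouse G-subfamily gene, was the highest, with 90.6% and 94.0% in the Mixed mice and 97.4% and 95.2% in the B6 mice, from 5 cytosines that all lay at -979 to -855 bp from its start. Abca13 followed at 91.4% and 86.5% in the Mixed mice and 89.5% and 86.4% in the B6 mice in 5 cytosines from 20 to 85 bp after the start, all of them exonic. Abca16 had 60.3% and 75.8% in the Mixed mice and 73.0% and 70.3% in the B6 mice in 6 cytosines between -39 and 14 bp from a start. Abca4, the retinoid carrier of photoreceptors, was near the middle of the scale at 46.8% and 44.4% in the Mixed mice and 47.3% and 44.2% in the B6 mice in 11 cytosines, whose levels ran from 22.7% to 72.0%. Abca9 had 45.7% and 48.2% in the Mixed mice and 42.1% and 36.5% in the B6 mice in 3 cytosines. The mice were widest apart in Abca16, where Mixed-1 was the lowest.

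Abcc12, an exporter of the C subfamily, averaged 65.4% ± 1.83 over 8 cytosines that lay 772 to 821 bp past its start. Of these, 6 stood between 80.2% and 93.3% and 2 at 1.74% and 4.79%. Both low cytosines are the partner, on the other strand, of a cytosine at 81.7% or 93.3% in the same CpG, and both CpGs lie in a CCGG. Across the family, 499 CpGs were read on both strands and their strands differed by a median of 0.568 points, whereas 17 of them (3.41%) differed by 50 points or more, and all 17 were in a CCGG. Over all autosomes the same was seen in 2.21% of 248556 CpGs, of which 99.3% were in a CCGG. The part of end repair of the MspI-cut ends, a step of the library protocol, was not tested. With cytosines in a CCGG left out, the 6 covered promoters of the list differed from 27 others by -2.89 points in place of -5.92.

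Abcf3, a cytoplasmic member without transport function, averaged 12% ± 2.28, and 2 of its 8 promoter cytosines, at -977 and -999 bp from the start, were at 32.5% and 62.8%, whereas the 6 others, within 446 bp of the start, were at or below 0.325%. Abcc9, the vascular sulfonylurea receptor, averaged 7.79% over 3 cytosines, Abcc6 6.79% over 6 and Abcg4 3.25% over 79. The other members of the mitochondrial (Abcb8 and Abcb10), lysosomal (Abcb9 and Abcd4), peroxisomal (Abcd2 and Abcd3) and translation (Abce1, Abcf1 and Abcf2) groups lay between 0.0535% and 1.95%. Abcb1b, a mouse form of the multidrug exporter P-glycoprotein, was at 0.154%, and Abcg2, the breast cancer resistance protein, at 0.173%. In 5 members promoter cytosines also lay in the promoter of another gene. These were all those of Abcb1b (24), Abce1 (50), Abcf1 (7) and Abca5 (45), and 38 of 40 in Abca17. Their promoter levels are thus shared with another gene.

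**Figure D2:**
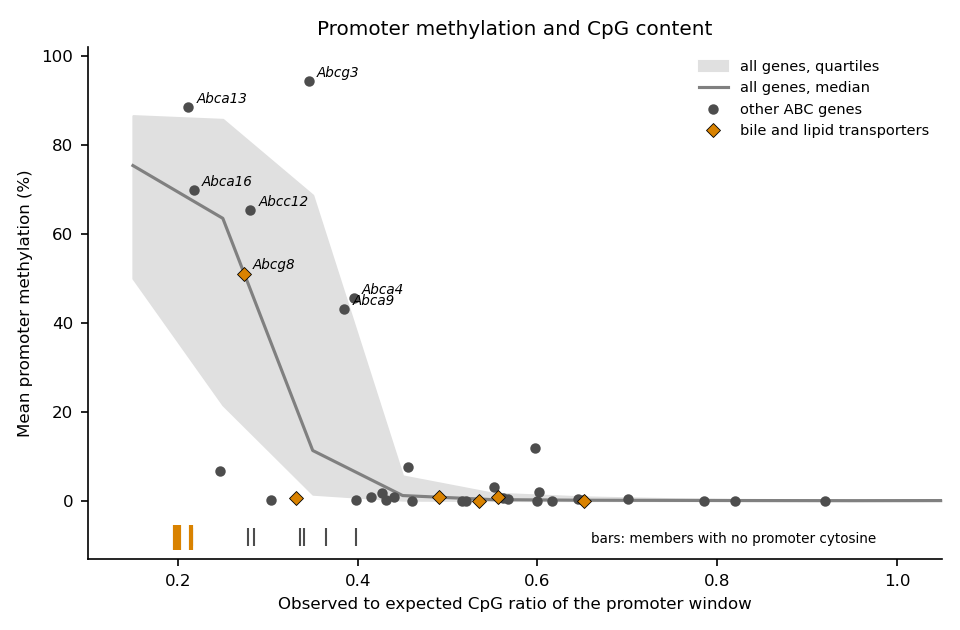
Mean promoter methylation over the 4 mice (%) against the observed to expected CpG ratio of the promoter window, with bile and lipid transporters as diamonds and other ABC genes as circles; the line and band are the median and quartiles of all genes in steps of 0.1, and bars under the axis mark members with no promoter cytosine. The 9 members at a ratio of 0.6 or more all lie below 2%, and the 7 named genes at 20% or more lie below a ratio of 0.4.

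The methylated promoters of the family were poor in CpG. All 9 members with a CpG ratio of at least 0.6 were below 20% (0.0613% to 1.98%), and of the 27 below 0.6, 20 were. Over all genes these counts were 8137 of 8205 and 6744 of 9639, shares near those of the members. Spearman's rho between ratio and promoter level was -0.639 across the 36 members and -0.62 across 17844 genes, given as a description over genes that share the same 4 libraries. Among the 6 covered promoters of the list the ratio was lowest in Abcg8 (0.274), next in Abcc3 (0.331) and highest in Abcb4 (0.651).

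Gene bodies were mostly methylated. In the 32 members with both regions measured, the body averaged 76.6% and 78.1% in the Mixed mice and 77.5% and 78.3% in the B6 mice, and the promoter 11.3% and 11.5% in the Mixed mice and 11.2% and 11.2% in the B6 mice. The body was 66.3 points ± 0.698 (SD, n = 4) above the promoter, in 4 of 4 mice (two-sided exact sign-flip permutation test, p = 0.125, adjusted p = 0.175). Of 40 bodies with at least 3 cytosines, 22 averaged above 80%, 16 lay between 20% and 80% and 2 below 20%, and over 16045 genes these shares were 45.9%, 42.4% and 11.7%. The 3 members without a body cytosine were Abcd3, Abce1 and Abcg3.

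The bodies of the bile and lipid transporters were lower than those of the other ABC genes in each mouse. Means over the 9 list genes were 69.0% and 69.2% in the Mixed mice and 68.2% and 68.6% in the B6 mice, and over 31 other genes 76.4% and 78.1% in the Mixed mice and 77.8% and 78.5% in the B6 mice. The difference was -8.98 points ± 1.11 (SD, n = 4; two-sided exact sign-flip permutation test, p = 0.125, adjusted p = 0.175). This SD and p hold the spread between mice and not that between genes. Single bodies ran from 43.1% to 88.8% in the list and from 10.9% to 94.1% in the others. The medians over genes differed by -13.2 points, and without Abca16 and Abcb1a, the lowest bodies of the other genes, the means differed by -13.4. Weighting each cytosine equally reduced it to -1.70 points, a promoter of 500 bp on each side reduced it to -2.87, the canalicular exporters alone gave -4.59 and a broad lipid list -4.78. With promoters of 1000 bp upstream only, so that the first 1000 bp of each gene joined the body, the sign turned to 6.79. In the list, 2 of 9 bodies exceeded 80%, and among the others 20 of 31 did.

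The list spanned a wide range. Abcb4 had the highest body, at 89.7% and 89.0% in the Mixed mice and 87.5% and 88.9% in the B6 mice over 17 cytosines, followed by Abcc3 at 85.6% ± 1.48 over 42 and Abcc4 at 78.0% ± 1.27 over 160. Abcc2 (71.3% ± 2.40, 26 cytosines) and Abcb11 (70.8% ± 2.70) did not differ beyond their spread, and Abcb11 was measured at 6 cytosines. Abcg5 stood at 65.8% ± 1.25 and Abcg8 at 61.6% ± 1.29. The cholesterol transporters were the lowest, with 55.6% and 53.0% in the Mixed mice and 52.2% and 53.2% in the B6 mice in Abca1 and 42.2% and 43.9% in the Mixed mice and 42.8% and 43.5% in the B6 mice in Abcg1, and in no mouse did Abca1 or Abcg1 reach the level of another list gene. The place of Abca1 depended on the promoter bound. Without its 10 cytosines just past that bound Abca1 averaged 68.4%, and Abcg8 without 4 such cytosines 70.9%, both above Abcg5.

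**Figure D3:**
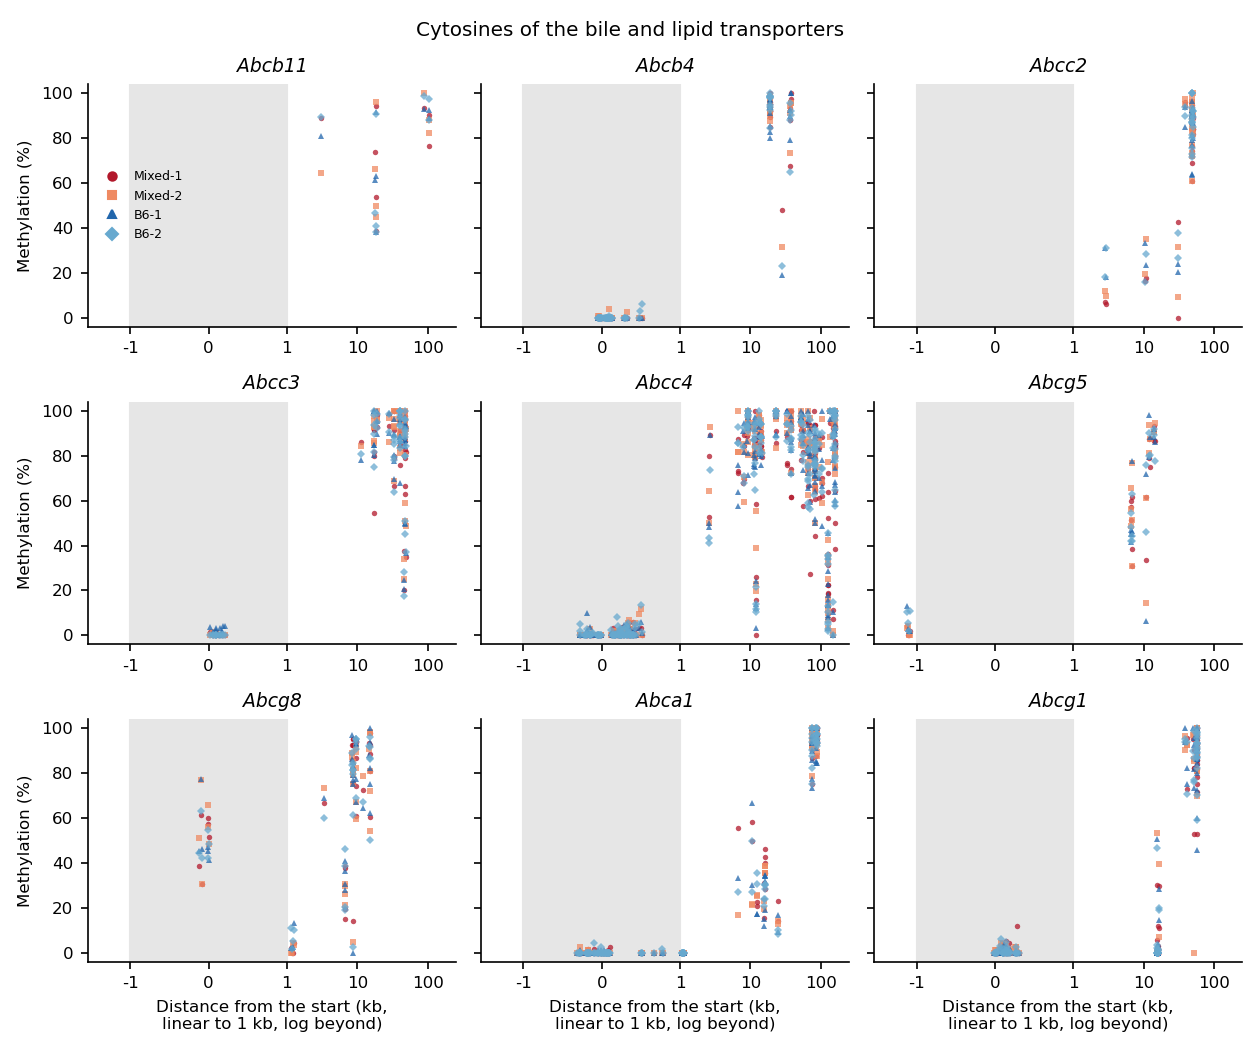
Methylation (%) of each shared cytosine of the 9 bile and lipid transporters against its distance from the nearest curated start (kb, linear to 1 kb and logarithmic beyond), with 1 symbol per mouse and the promoter window shaded. Abcb11, Abcc2 and Abcg5 have no point in the shaded window, and Abca1, Abcg1 and Abcc2 show cytosines under 50% well inside the gene.

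Some bodies held unmethylated or intermediate stretches, not all of them far from the promoter. Those nearest the start in Abca1, Abca7 and Abcg8 began 1062, 1006 and 1137 bp from it, just past the 1000 bp bound. Runs of at least 3 neighbouring body cytosines below 50%, no more than 500 bp apart, numbered 17 in 10 of 40 members and held 16.4% of the body cytosines, beside 35.6% of all genes and 37.3% of all body cytosines, and 4 of the 10 genes were in the list (Abca1, Abcg1, Abcc4 and Abcg8). In Abcg1, 29 cytosines about 15833 bp inside the gene (chr17:31073292-31074181, intron) averaged 3.39% and 3.44% in the Mixed mice and 3.75% and 3.30% in the B6 mice, while its other 26 body cytosines averaged 87.3%. In Abca1, 10 cytosines near 1097 bp (chr4:53158755-53158833) showed no methylated read in any mouse. The coverages of these 10 summed to 439 to 779 a mouse, with a read counted at each cytosine it covers. Independent calls would allow up to 0.683% in the shallowest mouse, so the true limit is higher. A further 7 cytosines of Abca1 near 15863 bp (chr4:53144007-53144310), 4 bp from the start of a predicted RefSeq transcript, were at 34.3% and 32.4% in the Mixed mice and 25.9% and 26.9% in the B6 mice. The groups did not overlap there, as in 36.5% of all gene bodies, and this stretch was not tested. The other stretches in list genes were 3 in Abcc4, at 14.1% to 23.7%, and 2 in Abcg8, at 3.88% and 29.9%.

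Abcc2, the conjugate exporter, had 2 levels along its length, set apart at a bound chosen after the values were seen. Its 6 cytosines between 2851 and 30924 bp from the start averaged 15% and 19.4% in the Mixed mice and 25% and 26.4% in the B6 mice, and the 20 beyond 38907 bp averaged 83.9% and 87.5% in the Mixed mice and 85.8% and 87.9% in the B6 mice. The first 2 of these cytosines, at a mean of 16.7%, bound a single MspI fragment nearest to the unmeasured promoter, printed here on the plus strand of mm10 with its CpGs in capitals. The Abcb11 fragment, 18104 to 18181 bp from the start and printed on the minus strand, averaged 61.9% over 4 cytosines, of which the highest stood at 93.3% and the lowest at 43.9%.
Abcc2 intron, chr19:43785157-43785215: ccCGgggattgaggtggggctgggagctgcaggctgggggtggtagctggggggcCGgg
Abcb11 intron, chr2:69324433-69324514: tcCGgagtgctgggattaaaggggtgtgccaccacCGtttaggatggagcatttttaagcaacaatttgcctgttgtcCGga

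Both fragments hold 2 CCGG, with 1 near each end. In Abcc2 the 2 Mixed mice were below the 2 B6 mice in the mean over the first 6 cytosines, which was not tested as a set. None of the 6 passed the test of single cytosines described below. Those at 10679 and 30924 bp had the higher mean in Mixed, and the others the lower. The groups did not overlap in 36.5% of all gene bodies.

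Outside the list, the lowest bodies were those of Abca16 and Abcb1a. Abca16 averaged 12.8% and 10.1% in the Mixed mice and 10.8% and 9.85% in the B6 mice, and 23 of its 24 body cytosines formed a single stretch at 7.90% about 82859 bp from the start (chr7:120504444-120504625). Abcb1a, the other mouse P-glycoprotein gene, was at 17.6% and 17.7% in the Mixed mice and 17.4% and 17.9% in the B6 mice. There 55 of 88 cytosines lay in the promoter of the overlapping gene Rundc3b and averaged 0.234%, and 15 more at 0.664% lay on a predicted start of Abcb1a itself, 93111 bp past its curated start. With cytosines in the promoters of other genes left out, the Abcb1a body was 46.6%. Abca7, a phospholipid carrier, followed at 52.2% ± 1.94, with 3 stretches at 5.72%, 42.0% and 34.1%. The highest bodies were those of Abcd4 (94.1% ± 3.15), the lysosomal cobalamin transporter, the peroxisomal Abcd2 (93.3% ± 1.95), Abcf3 (92.9% ± 1.03), Abcc9 (92.4% ± 2.10) and Abcc1 (90.5% ± 1.00), and neighbours in this order did not differ beyond their spread.

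**Figure D4:**
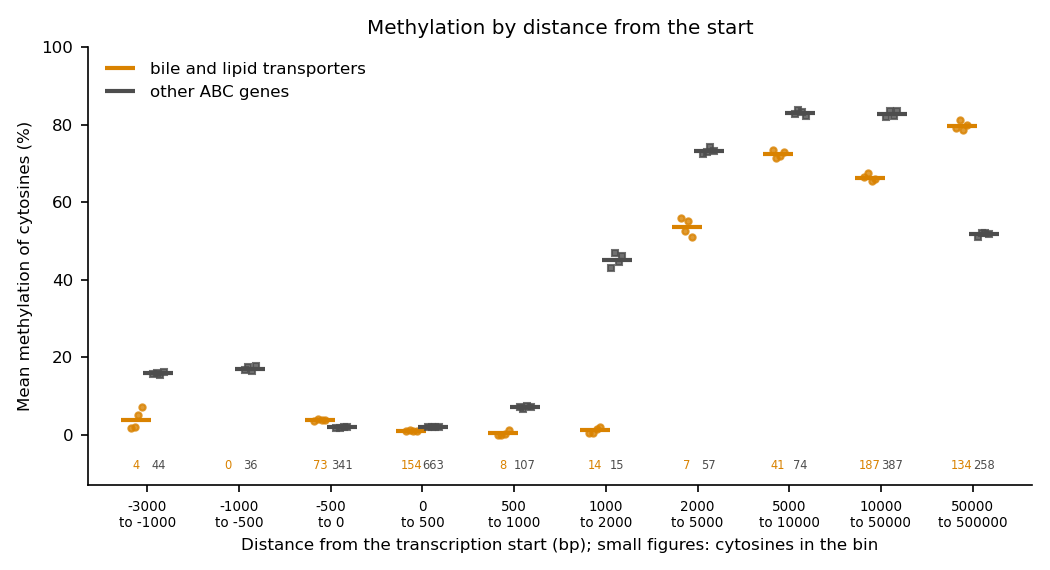
Mean methylation (%) of member cytosines in bins of distance (bp) from the nearest curated start, for bile and lipid transporters and other ABC genes; points are the 4 mice, bars their mean, and the numbers along the bottom count the cytosines. From -500 to 1000 bp the highest mean is 7.09%, and between 1000 and 2000 bp the list averages 1.11% and the other genes 45.1%.

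By distance from the start, member cytosines averaged 2.17% from 500 bp upstream to the start, 1.79% over the next 500 bp and 6.62% from 500 to 1000 bp. The level then rose to 23.9% between 1000 and 2000 bp, 71.0% between 2000 and 5000 bp and 79.2% between 5000 and 10000 bp. Between 1000 and 2000 bp the list averaged 1.11% over 14 cytosines of 2 genes, and the other ABC genes 45.1% over 15 cytosines of 3 genes. Between 10000 and 50000 bp these levels were 66.3% over 187 cytosines and 82.8% over 387. Beyond 50000 bp the order turned, with the list at 79.7% over 134 cytosines and the other ABC genes at 51.7% over 258. All members together averaged 61.3% there. Body cytosines in exons averaged 83.9% ± 0.612 (408 cytosines) and those in introns 63.7% ± 0.484 (783 cytosines). These are means over cytosines of unequal numbers of genes and carry no test.

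Against the Slc genes, the other large family of membrane transporters, the ABC means were higher in both regions. The mean promoter was 13.8% and 14.2% in the Mixed mice and 13.9% and 13.7% in the B6 mice in 36 ABC genes and 10.2% and 10.3% in the Mixed mice and 10.1% and 10.2% in the B6 mice in 245 Slc genes, a difference of 3.68 points ± 0.187 (SD, n = 4; two-sided exact sign-flip permutation test, p = 0.125, adjusted p = 0.175). It turned to -0.315 points with medians over genes and to -2.06 with promoters of at least 10 cytosines. Bodies differed by 3.43 points ± 0.783 (same exact test, p = 0.125, adjusted p = 0.175), with the ABC mean higher in 4 of 4 mice.

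Other genes of bile and cholesterol handling, taken as a list of 25 partners (uptake carriers, bile salt synthesis enzymes and nuclear receptors), were seldom covered at the promoter. Of the 25, 7 had at least 3 promoter cytosines and all 7 were below 20%, with a median of 0.588%, as were 83.4% of all genes. They included the flippase gene Atp8b1 at 0.412%, the liver X receptor genes Nr1h3 (0.836%) and Nr1h2 (0.355%), and the nuclear repressor gene Nr0b2 at 10.3%. In the 14 partners with at least 3 body cytosines the median was 68.8%, against 70.8% in the list and 78.0% in all genes.

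The Mixed and B6 mice had near-equal means over the family. Promoters averaged 14% ± 0.287 in Mixed and 13.8% ± 0.137 in B6 (n = 2 each), a difference of 0.246 points (two-sided exact permutation test, p = 0.667, adjusted p = 0.667; the smallest p of 2 against 2 mice is 0.333). Bodies averaged 75.4% ± 0.953 and 76.0% ± 0.429 (n = 2 each), a difference of -0.537 points (p = 0.667, adjusted p = 0.667, same exact test). The groups did not overlap in 13 of 36 promoters, beside 35% of all genes, and in 17 of 40 bodies, beside 36.5%. In promoters 19 members were higher in Mixed and 17 lower, and in bodies 18 and 22.

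No member cytosine passed the test of Mixed against B6 (a logistic model per cytosine with limma-moderated overdispersion, adjusted p under 0.01 and a difference of at least 25 points), whereas 0.00681% of all shared cytosines did. At an unadjusted p under 0.05 with the same difference there were 15 of 2636, against 0.321% of all cytosines, and Fisher's exact test on pooled reads called 7, where it called 0.126% of all cytosines. Of 76 member promoters and bodies, 1 passed (adjusted p under 0.05 and at least 5 points, 0.0472% of all regions), the body of Abca17, a gene of the A subfamily, and Fisher's exact test called 2, where it called 3.25% of all regions.

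**Figure D5:**
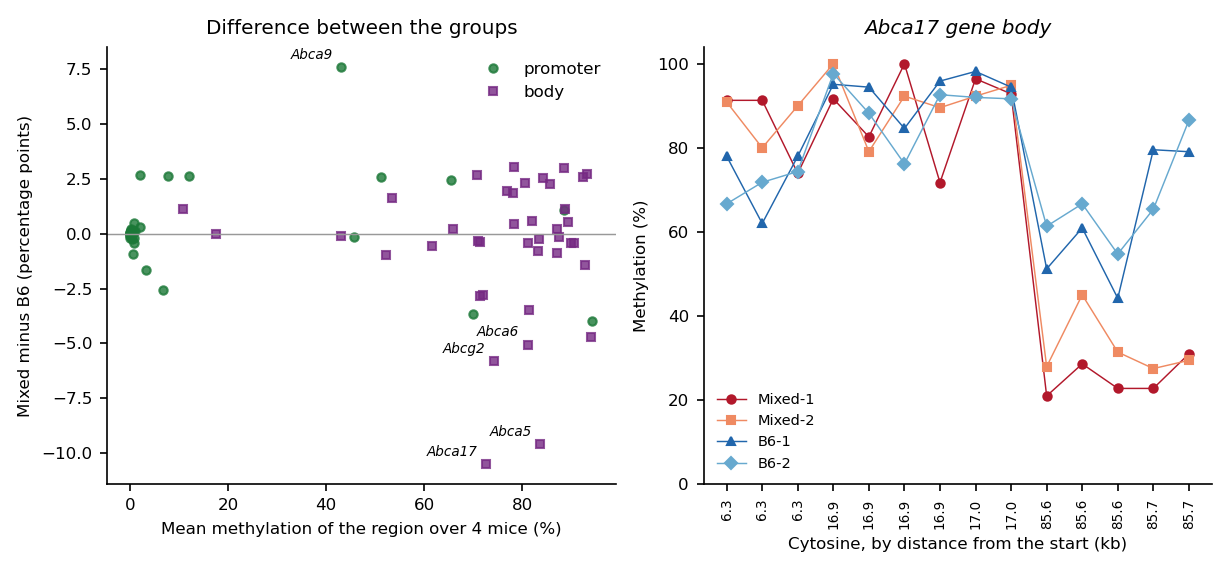
Left, the Mixed minus B6 difference (percentage points) of each member promoter and body against its mean level (%), with names at 5 points or more; right, the level (%) of the 14 body cytosines of Abca17 in each mouse, ordered by distance from the start (kb). Most regions lie within 5 points of 0, and the last 5 cytosines of Abca17 are lower in both Mixed mice.

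The Abca17 body (chr17:24264257-24352058, minus strand) averaged 65.6% and 69.3% in the Mixed mice and 78.3% and 77.6% in the B6 mice over 14 cytosines. The Mixed mice were 10.5 points lower as a mean over cytosines. Tested on reads summed over it, the body had an adjusted p = 0.0434 (limma-moderated logistic model). Chosen after the values were seen, its 5 cytosines at 85573 to 85663 bp from the start (chr17:24265396-24265486) averaged 25.2% and 32.2% in the Mixed mice and 63.0% and 66.9% in the B6 mice, whereas the 9 within 17025 bp of the start averaged 88.0% and 89.9% in the Mixed mice and 86.7% and 83.5% in the B6 mice. The lowest adjusted p of a member cytosine, 0.037 in the same limma-moderated model, belonged to the first of the 5, at position 24265396, the 1 member cytosine under 0.05 with a difference of at least 25 points, beside 0.0117% of all cytosines. Its reads were 31% methylated in Mixed-1 (95% Wilson interval 19.1% to 46.0%) and 29.4% in Mixed-2 (18.7% to 43.0%), against 79.1% in B6-1 (64.8% to 88.6%) and 86.5% in B6-2 (74.7% to 93.3%), intervals that cover counting error alone. The region call was lost with a coverage minimum of 20 (-22.8 points over 9 cytosines, adjusted p = 0.0564) and without Mixed replicate 1 (-8.61 points, adjusted p = 0.256) or Mixed replicate 2 (-12.4 points, adjusted p = 0.155), all in the same limma-moderated model, so the Mixed mice stayed lower in each.

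After Abca17, the largest differences of bodies were those of Abca5 (-9.58 points from 3 cytosines, adjusted p = 0.431), Abcg2 (-5.80, adjusted p = 1), Abca6 (-5.06, adjusted p = 0.969) and Abcd4 (-4.73, adjusted p = 0.615), and none passed the limma-moderated test. Among promoters they were those of Abca9 (7.58 points, adjusted p = 0.843), Abcg3 (-3.99, adjusted p = 0.835), Abca16 (-3.67, adjusted p = 1), Abcd2 (2.67, adjusted p = 0.783) and Abcf3 (2.64, adjusted p = 1), in the same model. In the list no region passed. The lowest adjusted p of the list was that of the Abca1 body, 0.226 in the limma-moderated model on summed reads. As a mean over cytosines this body was 1.61 points higher in Mixed.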

How the data were processed

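The livers of 4 male mice were each profiled once by ERRBS. The authors cut the DNA with MspI, converted it with bisulfite and sequenced single-end reads. The submitters' processing notes name Bismark, SAMtools and mm10, whereas the methods name BSMAP, and the aligner behind the files was not settled here. The deposited files give, for each CpG cytosine and strand, the coverage as a count of reads with a minimum of 10. The deposited percent columns split that coverage into reads with C (methylated) and with T, and the authors applied no normalization. Mean coverage was 44.2 (Mixed-1), 49.0 (Mixed-2), 63.7 (B6-1) and 60.1 (B6-2). Reads carry no molecular identifiers, so intervals cover counting error alone.

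Comparisons used the 1276684 cytosines in all 4 files, of which the 1253673 on autosomes all lay on a CpG of GRCm38. Promoters were 1000 bp on each side of every curated RefSeq start, bodies the rest of the gene. A region's level was the mean percent over its cytosines, at least 3 of them, and a gene set's level the mean over genes in each mouse. Gene sets were compared with two-sided exact sign-flip tests over mice and the groups with exact permutation tests. Cytosines and regions were tested with a logistic model whose overdispersion was moderated with limma 3.58.1 in R 4.3.3, adjusted by Benjamini-Hochberg over the whole table and tested on simulated data. For a region the model took reads summed over its cytosines, whereas the points printed are differences of means over cytosines. The p of a region thus depends also on how coverage is spread over its cytosines. Tables and tests ran in Python 3.11.15 (pandas 2.3.3, numpy 2.4.6, scipy 1.17.1). Nothing says that the mice of a group were litter mates or not, so p-values measure the spread between these mice.

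Named genes were the bile and lipid list, other members with a promoter of 20% or more, the 5 highest and 5 lowest bodies, the 5 largest group differences of promoters and of bodies, and members with a called cytosine or region. Others named in a group are examples chosen after their values were seen. The members, lists and tests were chosen with earlier results of these data known. Alternatives varied coverage, window, site minimum, strand handling, lists, thresholds and mice. RNA data and authors' comparisons were not used here, and 1 ABC gene is not reported here.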

Additional observations from a re-analysis of the deposited data

Results flagged for a closer look

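Of 45 promoters and bodies of the named genes set against Dixon's bound for 4 mice, 4 held a mouse far from the other 3, and chance flags about 1 in 20. They were the promoters of Abcc3, where B6-1 stood at 2.30%, Abcc9, where Mixed-1 stood at 11.4%, Abcg2, where Mixed-1 stood at 0.514%, and Abca5, where Mixed-2 stood at 0.199%. None of these 4 values moved its promoter out of the class below 20%.

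Cytosines read in some but not all mice gave a signal at a promoter that the comparisons leave out. In Abca12, 3 promoter cytosines of B6-1 averaged 63.2% at a median coverage of 11, and 1 of B6-2 stood at 84.6% at a coverage of 13, whereas the Mixed files held none, so the groups could not be compared. In Abcb6, likewise read in the B6 mice alone, 13 promoter cytosines were at 0% in both, at a median coverage of 41 and 29.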

How the results depend on the processing

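Of 158 reruns of the 10 comparisons, 140 kept their direction or, for counts, a similar count. For differences of means this says nothing of their size, and their p could not pass 0.05 in any run. Among the 140 were list differences of -0.0357 points (promoter, medians over genes) and -1.70 points (body, cytosines weighted equally). A coverage ceiling left the list differences unchanged. With promoters cut to 1000 bp upstream, list minus rest turned to 2.93 points (promoter) and 6.79 (body), and Mixed minus B6 in promoters to -0.408. The canalicular list gave 12.4 points and the broad lipid list 4.67 for the promoter, and -4.59 and -4.78 for the body. Promoters of at least 10 cytosines turned ABC minus Slc to -2.06 points and Mixed minus B6 to -0.103, medians over genes turned the former to -0.315, and leaving out cytosines in a CCGG, an alternative added after seeing the data, turned the latter to -0.164. Other alternatives added so were the runs without Abcg8, without Abca16 and Abcb1a, and with bodies beyond 5000 bp of a start. The cause was not tested. In members, Fisher's exact test called 7 cytosines and 2 regions (0.126% and 3.25% over the whole table), an adjusted p under 0.05 called 1 cytosine (0.0117% over the table, and 0 members with the reported bound), an adjusted p under 0.01 called 0 regions (limma-moderated), and a coverage minimum of 20 called 0 regions.

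Leaving out each mouse in turn gave -6.03 to -5.83 points for the list promoter difference, -9.49 to -8.66 for its body difference, 66.1 to 66.6 for body minus promoter, 3.61 to 3.75 and 3.15 to 3.75 for ABC minus Slc promoters and bodies, 0.0427 to 0.449 and -1.21 to 0.136 for Mixed minus B6 promoters and bodies, 29 to 29 promoters below 20%, and 0 to 1 called cytosines and regions. The region call was lost without Mixed replicate 1 or 2, and the cytosine call appeared without Mixed replicate 1. Across all cytosines the calls rose from 87 to 397 and 501 without Mixed replicate 1 and 2 and fell to 0 without B6 replicate 1 or 2.

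With the replicate block, Mixed minus B6 was 0.246 points in promoters (exact sign-flip permutation test, p = 1) and -0.537 in bodies (exact, p = 0.5), member calls were 0 cytosines and 1 region, and calls over all cytosines went from 87 to 0 and over all regions from 16 to 53. Deviations of same-numbered mice from their group means correlated at 0.0246 over the 2636 member cytosines, so the numbers were not taken as pairs. With 2 mice a group and 4 in all, no comparison of gene sets could pass 0.05, and cytosines near the minimum coverage of 10 set single levels loosely.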
